A study of Saccharomyces cerevisiae with 9 samples.

Results

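The mating pathway and a-cell genes described here are 10 genes of budding yeast chosen by name: MFA1, MFA2, STE2, BAR1, FUS3, KSS1, STE12, AGA1, AGA2 and FUS1. They are 10 of 6942 features in the table and all had a value on each of the 9 arrays, as did 6129 features in all. On each array, cDNA from yeast exposed for 30 min to 0.7 M NaCl in rich YPD medium at 30°C was set against cDNA of the same strain before stress. There were 7 arrays of wild type (WT) BY4741 and 2 of ckb12, a strain of the BY4741 deletion background that lacks both CKB1 and CKB2 and so the regulatory subunits of the kinase CK2. The labels put WT replicate 8 and ckb12 replicate 1 in a set A, WT replicate 9 and ckb12 replicate 2 in a set B, and WT replicates 10 to 12 in sets of their own, and give WT replicates 1 and 2 no set letter. WT replicate 12 was treated as WT after its title and genotype, although its source label also has the word mutant. The arrays had 6205 to 6812 values each, with medians between -0.0012 and 0.00016 and SDs between 1.22 and 1.41.

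Haploid yeast comes in the mating types a and alpha, and BY4741 is an a strain. An a cell secretes a-factor and binds alpha-factor with the receptor Ste2. Binding frees the G protein beta-gamma dimer, which starts a kinase cascade through Ste20, Ste11, Ste7 and the MAP kinases Fus3 and Kss1 to the transcription factor Ste12. The high-osmolarity glycerol (HOG) pathway, which answers salt, uses Ste20, Ste50 and Ste11 as well. In cells without the HOG kinases, osmotic stress switches on mating genes such as FUS1, which is why the pair of pathways is a textbook case of signalling crosstalk. A set of a-specific genes, among them MFA1, MFA2, STE2, STE6, BAR1 and AGA2, is expressed in a cells and repressed by the alpha2 protein in alpha and diploid cells.

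The values were log2 ratios of salt-treated over unstressed signal relative to the median feature of each array. Signal intensities were not used, so the ratios gave no transcript level and could not show the mating type itself. A change in the ratio of such a bulk culture cannot tell fewer expressing cells from less RNA per cell. The study's methods speak of biological replicates without saying which of these 9 arrays they were. The p-values set each mean or difference against the spread between these arrays, which in the fits with ckb12 came mostly from WT. Precision was limited by how many arrays there were.

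In WT, 8 of the 10 genes fell after salt and none rose. Over all features 77.1% were called in either direction and 40.6% were called lower (limma, Benjamini-Hochberg adjusted p below 0.05). The median of the 10 genes was -0.92 on the log2 scale, beside -0.042 over all features tested. The same 8 genes were below 0 on all 7 WT arrays, as were 36.5% of all features. With a minimum mean change of 1 on the log2 scale, 4 of the 10 were called lower, beside 28.7% of all features in either direction and 16.2% lower. The falls were deepest for the a-factor gene MFA2 and the agglutinin gene AGA2, and AGA1 and FUS1 missed the threshold.

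**Figure D1:**
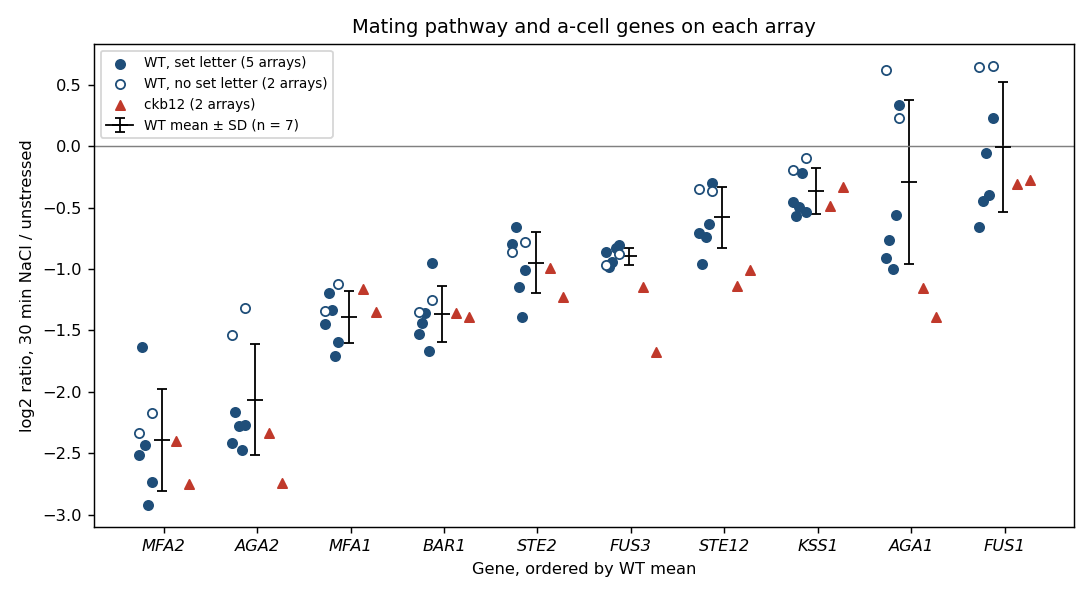
Log2 ratio of salt-treated over unstressed signal for each of the 10 genes on every array, with WT arrays as circles (open where the labels give no set letter) and ckb12 arrays as triangles. The bars give the WT mean ± SD of 7 arrays, and only AGA1 and FUS1 have WT values above 0.

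The a-factor genes fell together but not equally. MFA1 (YDR461W) and MFA2 (YNL145W) encode precursors of the same secreted lipopeptide pheromone. The WT ratios of MFA2 had a lowest value of -2.92, a median of -2.43 and a highest value of -1.63, and the ckb12 ratios were -2.40 and -2.75. Its WT mean of -2.39 ± 0.42 (SD, n = 7) was a fall of 5.24-fold (SE 0.13, adjusted p 5.7e-08, limma with Benjamini-Hochberg), and it ranked 173 from the lowest of 6129 features. WT replicate 9 lay highest, above every other array.

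For MFA1 the WT ratios ran from -1.71 through a median of -1.34 to -1.12, and the ckb12 ratios were -1.17 and -1.35. The WT mean was -1.39 ± 0.21 (SD, n = 7), a fall of 2.62-fold (SE 0.082, adjusted p 8.2e-08, limma with Benjamini-Hochberg). No array had MFA1 near 0, and both ckb12 values lay inside the WT range. Within arrays the log2 ratio of MFA2 minus that of MFA1 was -0.999 ± 0.26 (SD, n = 7), lay between -1.21 and -0.44 and was negative on 7 of 7 arrays. On the ckb12 arrays this difference was -1.24 and -1.40. An exact 2-sided sign-flip permutation test over the 7 WT arrays gave 0.0156, the smallest p that 128 sign patterns allow, and 0.0156 after Benjamini-Hochberg adjustment over 3 such gene pairs. The 3 pairs (MFA2 with MFA1, KSS1 with FUS3, AGA2 with AGA1) were chosen after the values were seen. Neither the p-values nor their adjustment allow for that choice. The tiles of MFA1 and MFA2 were not inspected, so signal shared between these similar genes was not tested.

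Maturation and export of a-factor was followed with 8 genes, of which 1 rose and 2 fell in WT, beside 77.1% of all features called in either direction. The one that fell most was STE6 (YKL209C), the transporter that exports a-factor. Its WT ratios lay between -1.05 and -0.68, with a mean of -0.89 ± 0.12 (SD, n = 7; adjusted p 3.8e-07, limma with Benjamini-Hochberg), and its ckb12 ratios were -1.29 and -1.09. RAM1 (YDL090C), a subunit of the farnesyltransferase, averaged -0.26 (adjusted p 0.0170, limma), and STE23 (YLR389C), a protease of the precursor, averaged 0.40 (adjusted p 0.00046, limma). The other 5 genes (RAM2, RCE1, STE24, STE14 and AXL1) did not pass, with WT means between -0.072 and 0.11. The median of the 8 genes was -0.052, beside -0.042 over all features.

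The receptor and the protease that clears its ligand also fell. STE2 (YFL026W), the alpha-factor receptor, had WT ratios with a lowest value of -1.39, a median of -0.86 and a highest value of -0.66, and ckb12 ratios of -0.99 and -1.23. The WT mean was -0.95 ± 0.25 (SD, n = 7), a fall of 1.93-fold (SE 0.091, adjusted p 4.1e-06, limma with Benjamini-Hochberg). Both ckb12 arrays lay within the range of the WT arrays.

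BAR1 (YIL015W) encodes the secreted protease that degrades alpha-factor. Its WT ratios ran from -1.67 through a median of -1.36 to -0.95, and the ckb12 ratios were -1.36 and -1.39, near the middle of the WT arrays. The WT mean was -1.36 ± 0.23 (SD, n = 7), a fall of 2.57-fold (SE 0.086, adjusted p 1.4e-07, limma with Benjamini-Hochberg).

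The a-specific genes listed as markers of a cells were 7: the 5 among the members (MFA1, MFA2, STE2, BAR1 and AGA2), STE6 and ASG7. In WT 6 of them fell, beside 40.6% of all features, and 1, ASG7 (YJL170C), rose, with a list median of -1.36. ASG7, which encodes a protein that acts on the G protein beta subunit, had ratios of 1.64 and 0.94 on WT replicates 1 and 2 and between -0.14 and 0.29 on the other 5 WT arrays. Its call (0.46, adjusted p 0.0482, limma) was lost without WT replicate 1, 2, 9, 10, 11 or 12, and its mean over the 5 arrays with a set letter was 0.12 (adjusted p 0.222, limma). Of 4 alpha-specific genes, STE3 (YKL178C, the a-factor receptor) averaged 0.50 and SAG1 (YJR004C, the alpha-agglutinin) 0.24. Both were called higher in limma (adjusted p 0.00020 and 0.0450), beside 36.5% of all features. Signal over background is unknown here, so whether these ratios of alpha-specific genes in an a strain came from signal near the background was not tested. The call of SAG1 was lost without WT replicate 1, 2, 8, 11 or 12, with adjusted p-values of up to 0.0984 in those fits (limma). Over the 5 WT arrays with a set letter SAG1 averaged 0.21 and was not called either (adjusted p 0.192, limma). The alpha-factor genes MF(ALPHA)1 and MF(ALPHA)2 lacked a value on WT replicate 2 and were not tested, and their 6 WT ratios ranged from 0.19 to 1.27 and from -0.78 to 0.85.

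Both MAP kinase genes fell in WT, FUS3 further than KSS1. FUS3 (YBL016W), the kinase of the mating response, had WT ratios with a lowest value of -0.98, a median of -0.88 and a highest value of -0.81. Its mean of -0.90 ± 0.069 (SD, n = 7) was a fall of 1.86-fold (SE 0.057, adjusted p 1.6e-07, limma with Benjamini-Hochberg). The SD was as low as or lower than that of all but 0.604% of features, whereas the median SD over features was 0.23. The ckb12 ratios of FUS3 were -1.14 and -1.67, both below all WT values.

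KSS1 (YGR040W) encodes the related MAP kinase of filamentous growth, which also takes part in mating. Its WT ratios ran from -0.57 through a median of -0.46 to -0.10, and the ckb12 ratios were -0.49 and -0.33. The WT mean of -0.37 ± 0.19 (SD, n = 7) was a fall of 1.29-fold (SE 0.077, adjusted p 0.00137, limma with Benjamini-Hochberg). Within arrays KSS1 lay above FUS3 on 7 of 7 WT arrays, by 0.53 ± 0.19 (SD, n = 7). The exact 2-sided sign-flip permutation test gave 0.0156, the smallest p possible with 7 arrays. It does not allow for choosing the pair after its values were seen. On the ckb12 arrays the difference was 0.65 and 1.34, the latter above the highest WT value of 0.78.

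STE12 (YHR084W), the transcription factor of the pathway, had WT ratios with a lowest value of -0.96, a median of -0.63 and a highest value of -0.30. The WT mean was -0.58 ± 0.25 (SD, n = 7), a fall of 1.495-fold (SE 0.090, adjusted p 0.00017, limma with Benjamini-Hochberg). The ckb12 ratios of -1.14 and -1.01 lay below all WT values.

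The genes of the 2 agglutinin subunits differed in their response. AGA2 (YGL032C), the subunit that binds the partner cell and is made only in a cells, had WT ratios of -2.47 at the lowest, -2.27 at the median and -1.32 at the highest, and ckb12 ratios of -2.33 and -2.74. The WT mean was -2.06 ± 0.45 (SD, n = 7), a fall of 4.18-fold (SE 0.14, adjusted p 3.0e-07, limma with Benjamini-Hochberg). AGA1 (YNR044W), the anchor that holds Aga2 on the cell wall, had WT ratios from -1.0 through a median of -0.56 to 0.62 and ckb12 ratios of -1.15 and -1.39. The AGA1 ratio was above 0 on WT replicates 1, 2 and 12 and below 0 on the other 4.

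The WT mean of AGA1 was -0.29 ± 0.67 (SD, n = 7; SE 0.20, adjusted p 0.211, limma with Benjamini-Hochberg). AGA1 passed with the 5 set-lettered arrays alone, at -0.58 (adjusted p 0.0277, limma). With a Storey-type q value in place of the Benjamini-Hochberg adjustment it passed on all 7 arrays as well (q 0.0291 from limma's unadjusted p of 0.181). That made 9 of the 10 genes lower, beside 5505 of 6129 features called in either direction and 2889 called lower. Within arrays AGA2 was below AGA1 on 7 of 7 WT arrays, by -1.77 ± 0.48 (SD, n = 7). The ckb12 arrays gave differences of -1.18 and -1.35. Over the WT arrays the exact 2-sided sign-flip permutation test gave 0.0156, the smallest p possible with 7 arrays. This pair too was chosen after its values were seen, which the test does not allow for.

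**Figure D2:**
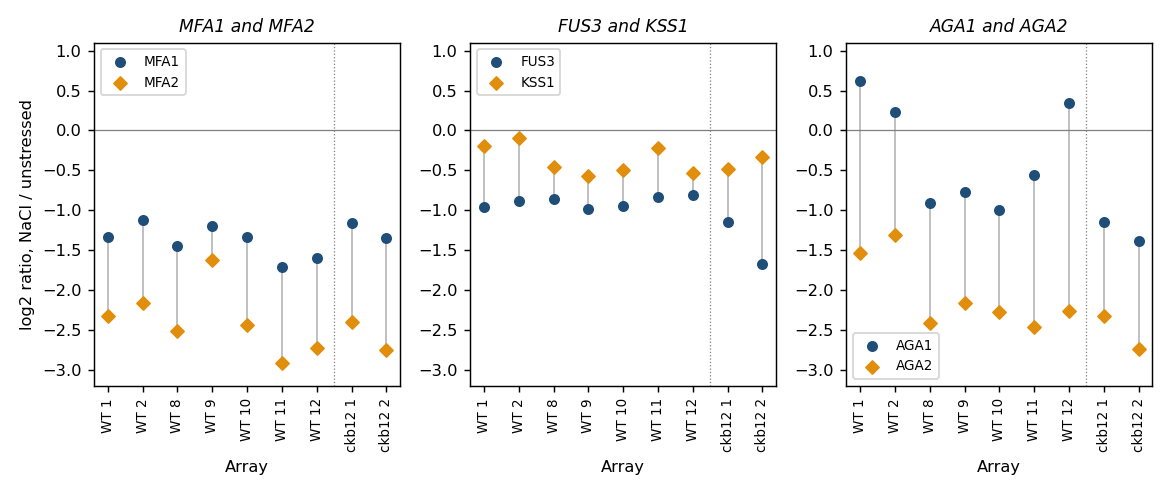
Log2 ratio on each array (horizontal axis, WT arrays left of the dotted line, ckb12 right) for 3 pairs of genes with related products, joined by a grey line. MFA2 lies below MFA1, FUS3 below KSS1 and AGA2 below AGA1 on all 9 arrays.

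FUS1 (YCL027W), a membrane protein for cell fusion and the usual reporter of pathway output, showed no shared direction. Its WT ratios had a lowest value of -0.66, a median of -0.053 and a highest value of 0.65, with WT replicates 1, 2 and 12 above 0 and the other 4 below. The mean was -0.0051 ± 0.53 (SD, n = 7; SE 0.17, 95% interval -0.37 to 0.36, adjusted p 0.979, limma with Benjamini-Hochberg). The interval left room for a change of that size either way, so FUS1 was not shown to be unchanged. The ckb12 ratios were -0.31 and -0.28. AGA1 and FUS1 had the 2 largest SDs of the 10 genes, each above the SDs of at least 93.4% of all features.

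The 3 features nearest to FUS1 by root mean square difference of the log2 ratio over the 9 arrays were SUL2 (0.24), YGR109W-B (0.26) and YLR112W (0.26). For MFA2 they were YMC2 (0.31), YDR524C-B (0.31) and RPS22A (0.33). No member was among them, and the nearest member to MFA2 was AGA2 at 0.48.

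Of 20 listed signalling genes upstream of these outputs 9 rose, 8 fell and 3 (BEM1, DIG2 and AKR1) did not pass in WT, beside 36.5% of all features higher and 40.6% lower. Both shares were near those of all features, and the list median was 0.073 beside -0.042 over all features. Among the genes that rose, MCM1 (YMR043W) averaged 0.18 (adjusted p 0.0448, limma) and lost its call without WT replicate 1, 2, 8, 10, 11 or 12. MCM1 was not called over the WT arrays with a set letter either (adjusted p 0.123, limma). FAR1 (YJL157C), which arrests the cycle in G1 on pheromone, fell most of the 20, with WT ratios between -3.24 and -2.60, a mean of -2.89 ± 0.24 (SD, n = 7) and a fall of 7.42-fold (adjusted p 1.0e-09, limma). STE4 (YOR212W), the G protein beta subunit, averaged -1.18 ± 0.17 and SST2 (YLR452C), which shuts off the G protein, -1.03 ± 0.22 (SD, n = 7; adjusted p 1.3e-07 and 1.2e-06, limma). PTP2 (YOR208W), a phosphatase of both Fus3 and Hog1, rose most, to 0.93 ± 0.095 (SD, n = 7; adjusted p 1.8e-07, limma).

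The G protein subunits differed in sign, which was read after the values were seen. GPA1 (YHR005C), the alpha subunit, averaged -0.61 ± 0.26 and STE18 (YJR086W), the gamma subunit, 0.59 ± 0.27 (SD, n = 7; adjusted p 0.00014 and 0.00022, limma). Of the components shared with the HOG pathway, STE11 (YLR362W) averaged 0.79 ± 0.18 and STE50 (YCL032W) 0.56 ± 0.18, above 0 on 7 of 7 WT arrays each. STE20 (YHL007C) averaged -0.74 ± 0.063 and CDC42 (YLR229C) -0.61 ± 0.18, below 0 on 7 of 7 (SD, n = 7). STE50 had the highest adjusted p of them, 5.2e-05 (limma). The kinase Ste11 and its adaptor Ste50 thus had higher transcript ratios, and the kinase Ste20 and the GTPase Cdc42 lower ones.

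Of 25 listed genes known to be induced by pheromone 21 had values on all 7 WT arrays, and 8 of them rose, 7 fell and 6 did not pass, with a median of 0.056. These shares too were near the 36.5% higher and 40.6% lower of all features. FAR1 and SST2 stood in this list as well as among the signalling genes. Among the genes that rose, KAR4 (YCL055W) averaged 0.31 (adjusted p 0.0424, limma) and lost its call without WT replicate 1, 2, 9, 10 or 11. Its mean over the WT arrays with a set letter was 0.11. PRM10 (YJL108C), a predicted membrane protein, rose to 4.23 ± 0.49 (SD, n = 7), or 18.8-fold (adjusted p 2.7e-09, limma). PRM8 (YGL053W) rose to 2.36 ± 0.30 and AFR1 (YDR085C), which acts in forming the mating projection, to 2.17 ± 0.20 (SD, n = 7; adjusted p 9.0e-09 and 2.7e-09, limma). PRM8 belongs to a family of similar genes with PRM9, and how signal is divided between them is not known here.

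Outside the rule for naming genes, FUS2 (YMR232W), which acts in cell fusion beside FUS1, rose to 1.49 ± 0.33 and was above 0 on 7 of 7 arrays (SD, n = 7; adjusted p 5.6e-07, limma). SCW10 (YMR305C), a cell wall glucanase, fell to -1.46 ± 0.28 and PRM7 (YDL039C) to -1.79 ± 1.08 (SD, n = 7; adjusted p 2.5e-07 and 0.00049, limma). The large spread of PRM7 came with means of -3.17 on WT replicates 1 and 2 and -1.24 on the other 5. FIG1, PRM2, PRM3 and PRM6 lacked a value on WT replicate 2 and were not tested.

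Of 5 listed targets of the filamentous growth pathway, which shares Kss1 and Ste12, 3 fell, 1 rose and PGU1 did not pass in WT, beside 40.6% of all features lower and 36.5% higher. TEC1 (YBR083W), the partner of Ste12 in this pathway, averaged -1.41 ± 0.46, SVS1 (YPL163C) -0.87 ± 0.42 and the G1 cyclin gene CLN1 (YMR199W) -0.78 ± 0.44 (SD, n = 7). FLO11 (YIR019C), a flocculin, averaged 0.88 ± 0.39 (SD, n = 7). Their adjusted p-values ranged from 7.3e-06 for TEC1 to 0.00047 for CLN1 (limma, Benjamini-Hochberg).

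**Figure D3:**
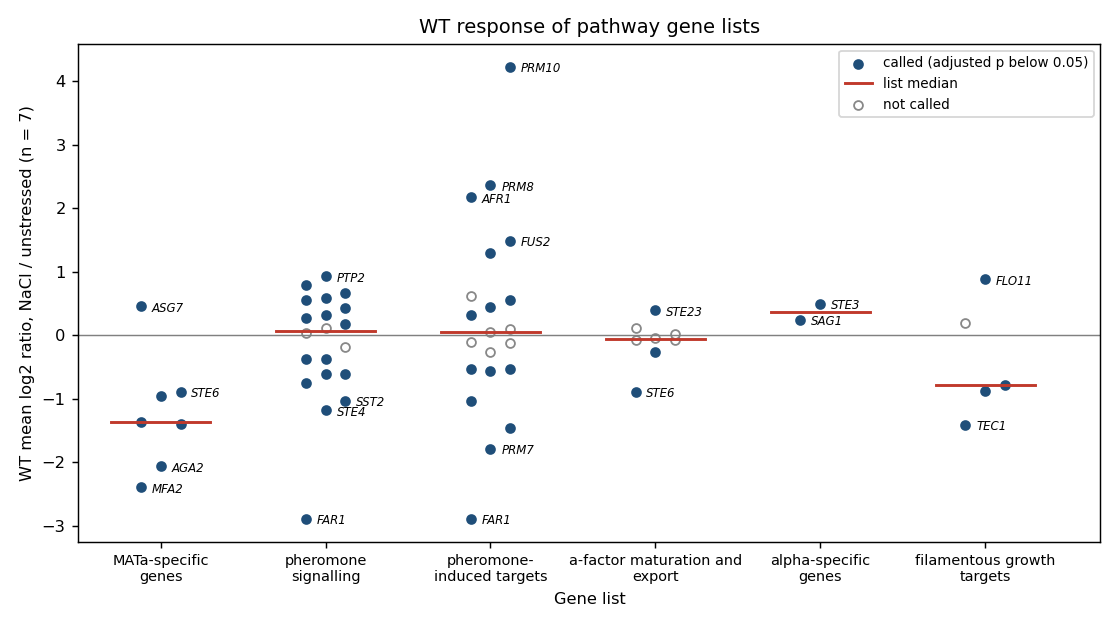
WT mean log2 ratio (7 arrays) of each tested gene in 6 lists, with filled points for called genes, open points for the rest and a red bar at the list median. The list of a-specific genes has a median of -1.36, whereas the signalling and pheromone-induced lists spread to both sides of 0 with medians of 0.073 and 0.056.

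The 8 genes that fell in WT also fell in ckb12. In the model of 9 arrays, which shares the spread between strains, 9 of 10 fell and none rose, beside 63.0% of all features called in either direction, 35.7% lower and 27.4% higher (limma, Benjamini-Hochberg). The gene that did not pass was FUS1 at -0.29 (adjusted p 0.409, limma). The means were -2.58 ± 0.25 for MFA2, -2.54 ± 0.29 for AGA2, -1.41 ± 0.37 for FUS3, -1.38 ± 0.022 for BAR1 and -1.27 ± 0.17 for AGA1 (SD, n = 2). They were -1.26 ± 0.13 for MFA1, -1.11 ± 0.17 for STE2, -1.07 ± 0.094 for STE12 and -0.41 ± 0.11 for KSS1 (SD, n = 2). All 10 were below 0 on both ckb12 arrays, but the share of all features that were so was not worked out. AGA1 and KSS1 lost their calls without ckb12 replicate 1 (adjusted p 0.0538 and 0.201, limma) or without ckb12 replicate 2 (0.107 and 0.0744), fits in which the lone ckb12 array is taken to vary like WT.

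Whether ckb12 and WT differ was tested directly, and 0 of the 10 genes passed, beside 1.14% of all features (limma, Benjamini-Hochberg, 9 arrays). At an unadjusted p below 0.05 there were 3 of the 10, beside 15.3% of all features. The median difference of ckb12 minus WT was -0.24 over the 10 genes, beside -0.057 over all features. The ckb12 means were lower than the WT means for 9 of 10 genes, a count whose share over all features was not worked out. For BAR1, KSS1, FUS1 and MFA2 the sign turned under some of the alternative settings. For 3 of the 10 both ckb12 values lay below all WT values and for none above, beside 17.4% of all features outside the WT range in either direction. These 3 were AGA1, FUS3 and STE12, the same genes that had an unadjusted p below 0.05.

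FUS3 differed by -0.51 (SE 0.14, 95% interval -0.83 to -0.20, adjusted p 0.116, limma with Benjamini-Hochberg). Within set A the difference was -0.28, and within set B it was -0.69. It was the only member with both ckb12 values outside the WT mean ± 2 SD, a rule tried as an alternative, which took in 7.59% of all features. With the WT SD of 0.069 that band was narrow. STE12 differed by -0.49 (SE 0.18, 95% interval -0.90 to -0.091, adjusted p 0.230, limma), and its within-set differences were -0.43 (A) and -0.047 (B). AGA1 differed by -0.98 (SE 0.42, 95% interval -1.90 to -0.056, adjusted p 0.293, limma), and its within-set differences of -0.24 (A) and -0.62 (B) were both smaller in size.

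For FUS1 the direction turned with the WT arrays used. Against all 7 WT arrays it differed by -0.29 (95% interval -1.03 to 0.45, adjusted p 0.751, limma), but within sets ckb12 was higher, by 0.36 (A) and 0.17 (B), and with the set letter as a block the value was 0.26 (adjusted p 0.452, limma). The a-factor and receptor genes gave intervals on both sides of 0: -0.24 to 0.50 for MFA1, -0.80 to 0.43 for MFA2, -0.58 to 0.25 for STE2 and -0.39 to 0.37 for BAR1. AGA2 differed by -0.47 (95% interval -1.13 to 0.19) and KSS1 by -0.044 (95% interval -0.39 to 0.30). The difference was negative in both sets for 4 genes (STE2, AGA1, FUS3 and STE12), beside 39.0% of all features.

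**Figure D4:**
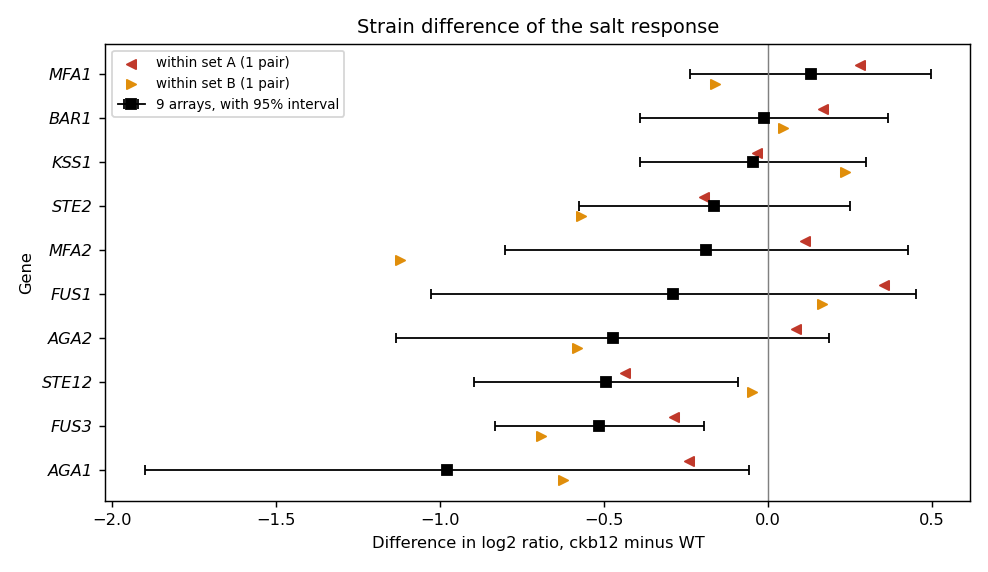
Difference in log2 ratio between ckb12 and WT (horizontal axis) for the 10 genes, as the estimate from 9 arrays with its 95% interval (squares) and as the single difference within set A and set B (triangles). The intervals of AGA1, FUS3 and STE12 lie below 0 before adjustment over all features, and the within-set values of FUS1 lie on the other side of 0 from its estimate.

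None of the genes in the 6 lists passed in the strain comparison either (limma, Benjamini-Hochberg, adjusted p of 0.0891 or more). The smallest was that of PRM5 (YIL117C), a pheromone-regulated gene that also answers cell wall stress, with a WT mean of 0.56 ± 0.24 (SD, n = 7), ckb12 ratios of -0.36 and -0.011 and a difference of -0.75. For FUS2 the ckb12 ratios of 0.57 and 0.70 lay below the lowest WT value of 1.09, a difference of -0.86 (adjusted p 0.104, limma). In ckb12 itself 6 of the 20 signalling genes rose and 8 fell, 6 of the 21 pheromone-induced genes rose and 7 fell, and 4 of the 5 filamentous growth targets fell, beside 27.4% of all features higher and 35.7% lower. The shares of the first 2 lists were near those of all features.

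WT arrays with and without a set letter were also compared. Limma called 1 of the 10 genes, AGA2, beside 0.457% of all features. AGA2 had ratios of -2.42, -2.16, -2.27, -2.47 and -2.27 on the 5 lettered arrays and -1.54 and -1.32 on WT replicates 1 and 2, with no overlap. The difference was -0.89 (SE 0.15, adjusted p 0.0394, limma with Benjamini-Hochberg). It missed the threshold in 6 of the 7 fits that left out 1 WT array, all but that without WT replicate 12, with adjusted p-values of up to 0.486 (limma), and its sign was the same in all 7. AGA2 fell in both groups, and the groups differed in how far.

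FUS1 ratios were -0.66, -0.44, -0.053, -0.40 and 0.23 on the lettered arrays and 0.64 and 0.65 on the others, again without overlap. The difference of -0.91 (SE 0.23) missed the threshold at an adjusted p of 0.151 and passed without WT replicate 12, at -1.04 (adjusted p 0.0250, limma). AGA1 ratios were -0.91, -0.77, -1.0, -0.56 and 0.34 on the lettered arrays and 0.62 and 0.23 on the others, which overlap through WT replicate 12. Its difference was -1.01 (adjusted p 0.239, limma), and -1.24 without WT replicate 12 (adjusted p 0.0132). For KSS1 the groups did not overlap either, at -0.46 ± 0.14 (SD, n = 5) and -0.15 ± 0.068 (SD, n = 2), with an adjusted p of 0.406 (limma).

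For 3 of the 10 genes (AGA2, FUS1 and KSS1) all lettered arrays lay below both unlettered arrays and for none above, beside 13.2% and, in either direction, 18.7% of all features. The unlettered arrays also stood apart for ASG7 and, with a difference of -1.51, for PRM1 (YNL279W), which encodes a cell fusion protein and averaged 0.18 ± 0.60 on lettered and 1.70 ± 0.57 on unlettered arrays (SD, n = 5 and 2). For PRM1 the adjusted p was 0.157 (limma). The labels do not say what the letters stand for, and culture, day or array handling cannot be told apart from them.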

How the data were processed

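The authors hybridised labelled cDNA of salt-treated and unstressed cultures to 2-colour tiled NimbleGen arrays, normalized the signals and deposited 1 log2 ratio per feature and array, with missing values blank. The log2 scale came from the study's methods and legends, and the direction from the labels, which give every treated sample the same dye, although dye orientation is also mentioned in the methods. The combination of tiles and the genome build are not given in the sources used here. Gene names came from a RefSeq table of R64, in which 6023 of 6942 feature IDs matched.

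Ratios were used as deposited in R 4.3.3 with limma 3.58.1 (lmFit, eBayes), leaving out features with a blank in any array fitted, with p-values adjusted by Benjamini-Hochberg over all features and called below 0.05. For the WT response the mean of 7 arrays was tested against 0. A model with a mean for each strain, fitted to 9 arrays, gave the ckb12 response and the strain difference. The set letter as a block (4 arrays, 1 residual degree of freedom) was an alternative. Deviations of same-set arrays correlated at -0.0844. Sign-flip tests used SciPy 1.17.1. The main fits of the WT response, ckb12 response, strain difference and set-letter comparison were tried on simulated data without a set effect. The alternative fits were not tried in this way.

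Members and lists (from general knowledge) were chosen with earlier results of these data known. Named from each list were up to 4 called genes with the largest WT means in size and any called between strains, and, for the members with the highest and lowest WT mean, the 3 nearest features. GPA1, STE18, STE11, STE50, STE20, CDC42, MCM1, KAR4, FUS2, SCW10, PRM7, PRM5, PRM1 and ASG7 were named after their values were seen, as were genes given only as untested or not passing. Alternatives were centring, quantile or median absolute deviation (MAD) scaling, missing values kept, systematic ORF names only, robust eBayes, a q value, a minimum change of 1, the set as a random block, a WT mean ± 2 SD rule and leaving out arrays.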

Additional observations from a re-analysis of the deposited data

Results flagged for a closer look

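AGA2 differed between WT arrays with and without a set letter in limma, by -0.89 (adjusted p 0.0394), although both groups are the same strain and treatment. STE4 had 1 WT array far from the other 6, WT replicate 12 at -1.52. Chance marks about 1 in 20 groups in this way, and 41 genes were examined. No member had such an array. WT replicate 12 also had the widest spread of ratios of all arrays (SD 1.41, MAD 1.07). Whether this spread bears on the STE4 value was not tested.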

How the results depend on the processing

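The calls of the 8 genes that fell in WT were the same under each rescaling and with any 1 WT array left out (4524 to 4875 features called in all). A minimum change of 1 left 4 of them (AGA2, MFA1, MFA2 and BAR1) and 1761 features, and 1945 features in ckb12. Between strains 70 features were called. This became 46 under MAD scaling, 35 with a minimum difference of 1, 17 with lettered arrays only (chosen after seeing the data), 465 by the 2 SD rule (1 member) and 0 to 142 with 1 array left out. It was 0 without either ckb12 array (730 and 443 at an unadjusted p below 0.05 in limma) and 142 without WT replicate 12. Sets A and B alone gave 1 with the replicate block by set letter and 0 without it (1096 and 1022 at an unadjusted p below 0.05, limma), with no member called in either. The set-letter count of 28 (21 higher, 7 lower) was 35 under MAD scaling (19 higher, 16 lower) and ranged from 3 to 108 with 1 array left out. Its member count of 1 became 0 under quantile or MAD scaling, with missing values kept or with a minimum difference of 1, and 0 to 3 with 1 array left out. The causes were not tested.

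Signs turned for values near 0. With 1 array left out the WT mean of FUS1 ranged from -0.11 to 0.10, the set-letter difference of FUS3 from -0.0042 to 0.080, and the strain differences of BAR1 from -0.062 to 0.057 and of KSS1 from -0.12 to 0.034. In sets A and B, with or without the replicate block, the strain difference was 0.26 for FUS1, 0.11 for BAR1 and 0.10 for KSS1. For BAR1 it was 0.099 under quantile and 0.068 under MAD scaling, 0.0094 with the set as a random block and 0.013 with lettered arrays only, where KSS1 was 0.043. MFA2 was 0.047 under quantile normalization. The mean within-array differences of the 3 gene pairs kept their sign under quantile normalization. Each pair had the same sign on all 7 WT arrays. Centring, MAD scaling or leaving out 1 array therefore could not turn it. Signal over background is unknown here.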
